A study of Mus musculus with 8 samples.

Results

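The alternative activation genes *Retnla*, *Clec10a*, *Mgl2*, *Mrc1*, *Arg1*, *Chil3*, *Il4ra* and *Tgm2* were followed in mouse bone marrow-derived dendritic cells (BMDCs) treated with an *Echinacea purpurea* extract or its vehicle. These 8 of 18193 genes on the arrays with a probe set of their own were taken by name, and each gene is represented by the probe set chosen by the highest mean log2 signal over all 8 arrays. *Retnla*, *Clec10a*, *Mgl2*, *Mrc1*, *Arg1* and *Chil3* had a single such probe set, *Il4ra* had 3 and *Tgm2* had 6. The selecting values, given here as a description, were a mean log2 signal of 8.93 for the *Il4ra* probe set taken against 8.01 for the next, and of 13.88 for the *Tgm2* probe set taken against 13.43 for the next. Only the level chose between probe sets, but the gene list itself was drawn up when lower *Retnla* and *Clec10a* signals at 12 h were already known.

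The BMDCs came from bone marrow of six-week-old female BALB/c mice, cultured for 9 days with GM-CSF (200 U/mL by the labels), and the non-adherent cells were taken as immature DCs. The study's results section also gives 200 U/mL of GM-CSF, but its methods section gives a higher dose. All cells, controls included, had GM-CSF and 0.1% DMSO. The treated cells also had 75 μg/mL of [BF/S+L/Ep], a butanol fraction of stem and leaf extract. After 4 h or 12 h their RNA was put on Affymetrix Mouse Genome arrays, with 2 arrays in each of 4 groups (DMSO 4 h, [BF/S+L/Ep] 4 h, DMSO 12 h and [BF/S+L/Ep] 12 h). Every value below is a MAS5 signal on a linear scale or a difference of its log2, and no source used here gives the batches of the arrays. The 2 numbered replicates of a group limit the precision, and the p-values measure only the spread between these arrays. The study calls them biological replicates from cell culture and required its fold changes to show in 2 independent experiments. It does not say how these experiments map onto the arrays. The labels give only numbers, and no source used here says whether the replicates came from separate mice or culture days. The cells are a bulk culture, in which fewer cells of a type and less RNA per cell cannot be told apart.

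Alternative activation is the state that macrophages and related myeloid cells take up under IL-4 or IL-13. Both cytokines act through the IL-4 receptor alpha chain (*Il4ra*), which activates the transcription factor STAT6 and with it genes for secreted proteins (*Retnla*, *Chil3*), enzymes (*Arg1*, *Tgm2*) and lectin receptors that bind sugars on glycoproteins (*Clec10a*, *Mgl2*, *Mrc1*). GM-CSF cultures of bone marrow hold cells with features of DCs and of macrophages, and several of these genes are on in them without added IL-4.

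RefSeq start-site windows (GRCm38.p6) were at hand for 5 of the 8 genes, and the 250 bases upstream of the start were searched on both strands for 3 short patterns: TTC and GAA separated by 4 bases, the form known for STAT6; TTC and GAA separated by 3 bases, the general STAT form; and TTGC, any 2 bases and AA, a C/EBP core of the kind known from myeloid promoters. Of 32851 such windows, 5.85%, 7.02% and 9.56% held these patterns. The windows of *Retnla* (chr16:48842359-48842608, plus strand) and *Chil3* (chr3:106167565-106167814, minus strand) are printed 5′ to 3′ because they held matches, and that of *Mgl2* (chr11:70130107-70130356, plus strand) because its signal changed most over time. Capitals mark the matches.
Retnla: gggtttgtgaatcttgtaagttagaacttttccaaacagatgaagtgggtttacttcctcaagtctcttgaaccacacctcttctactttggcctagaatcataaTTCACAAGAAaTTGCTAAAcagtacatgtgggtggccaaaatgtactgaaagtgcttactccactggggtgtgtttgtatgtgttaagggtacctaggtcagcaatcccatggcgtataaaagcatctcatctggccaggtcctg
Chil3: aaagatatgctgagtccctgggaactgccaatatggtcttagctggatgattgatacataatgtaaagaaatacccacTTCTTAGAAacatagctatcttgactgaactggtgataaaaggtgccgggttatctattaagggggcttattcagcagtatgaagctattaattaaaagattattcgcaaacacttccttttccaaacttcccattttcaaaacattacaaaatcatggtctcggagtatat
Mgl2: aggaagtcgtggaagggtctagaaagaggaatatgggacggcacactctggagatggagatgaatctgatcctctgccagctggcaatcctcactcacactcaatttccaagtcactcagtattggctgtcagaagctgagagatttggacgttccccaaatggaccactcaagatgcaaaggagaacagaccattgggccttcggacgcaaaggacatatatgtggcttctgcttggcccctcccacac
In *Retnla* the 4-base form stood 145 to 136 bases before the start and was followed after 1 base by the C/EBP form at 134 to 127. In *Chil3* the 3-base form stood 172 to 164 bases before the start. The windows of *Mgl2*, *Mrc1* and *Il4ra* held none of the 3 patterns. *Arg1*, *Clec10a* and *Tgm2* were not searched. A match is a run of letters and not a shown binding site.

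The label of the cells was checked against marker lists. Of 8 DC markers, 7 were above a background reference on all 8 arrays (set on each array at the 95th percentile of the signals of 84 smell, taste and pheromone receptor probe sets, 66.6 to 107), and *Flt3*, the eighth, on 6. All 6 measured macrophage markers were above it on all 8 arrays too. The summed DC signals ran from 178649 to 190821 over the 4 h arrays and from 172520 to 188608 over the 12 h arrays, and the summed macrophage signals from 50096 to 55432 and from 55035 to 58424. The defining eosinophil genes *Prg2*, *Epx*, *Ccr3* and *Il5ra* were under the reference on every array, and *Siglecf* alone of that list was above it, with sums of 3180 to 3256 in DMSO 4 h, 2703 to 2842 in [BF/S+L/Ep] 4 h, 1911 to 2308 in DMSO 12 h and 1724 to 1907 in [BF/S+L/Ep] 12 h. Of the neutrophil list 3 of 8 measured genes were above the reference on all arrays (sums of 2793 to 4163), of the mast cell and basophil list 2 of 8 (522 to 816), of the platelet list 1 of 4 (359 to 770), and of the B cell and the T and NK cell lists none (122 to 255 and 65.7 to 143). In limma, no marker of these 8 lists passed an adjusted p of 0.05 for [BF/S+L/Ep] at 4 h or at 12 h. Few probe sets passed at all (2 higher and 0 lower at 4 h, 7 and 2 at 12 h), so this does not show unmoved markers. Of markers above the reference on all arrays, *Mertk*, *Zbtb46* and *Siglecf* lay under both controls on both treated arrays at each time. *Adgre1* and *C1qa* lay above both controls. At 12 h these 5 were at 74.5%, 81%, 85%, 122% and 108% of DMSO. The share of probe sets without overlap is given below. From 4 h to 12 h in DMSO, *Adgre1* rose from 1020 to 2272, *C1qa* from 5536 to 7514 and *Zbtb46* from 632 to 1087. *Siglecf* fell from 3144 to 2029, and limma called all of these (adjusted p = 0.000507 to 0.0338). The same markers, and no others, passed in the same directions in [BF/S+L/Ep] (0.000203 to 0.0227). *Csf1r* made up most of the macrophage sums (33146.4 to 38690.8). Most of the DC sums came from *Cd74* (50035.7 to 57296.5), *H2-Aa* (47015.1 to 55759.2) and *H2-Ab1* (37740.9 to 44122.6), so the sums mainly follow these genes. The part of these cell types in the results below was not tested.

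Each of the 8 genes exceeded that reference on every array. At 12 h the [BF/S+L/Ep] signals of *Retnla*, a secreted protein of the resistin family, were 54.5% of DMSO, and those of *Clec10a*, a galactose-binding lectin, 48%, and both falls passed the test. No other member passed at 12 h, and none passed at 4 h, where both treated *Clec10a* arrays were under both controls. *Mgl2*, a lectin closely related to *Clec10a*, fell between 4 h and 12 h in both treatments to 30.4% of its level in DMSO and 25.6% in [BF/S+L/Ep], and did not pass the test for the extract. *Il4ra*, *Arg1* and *Chil3* passed in no comparison.

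**Figure D1:**
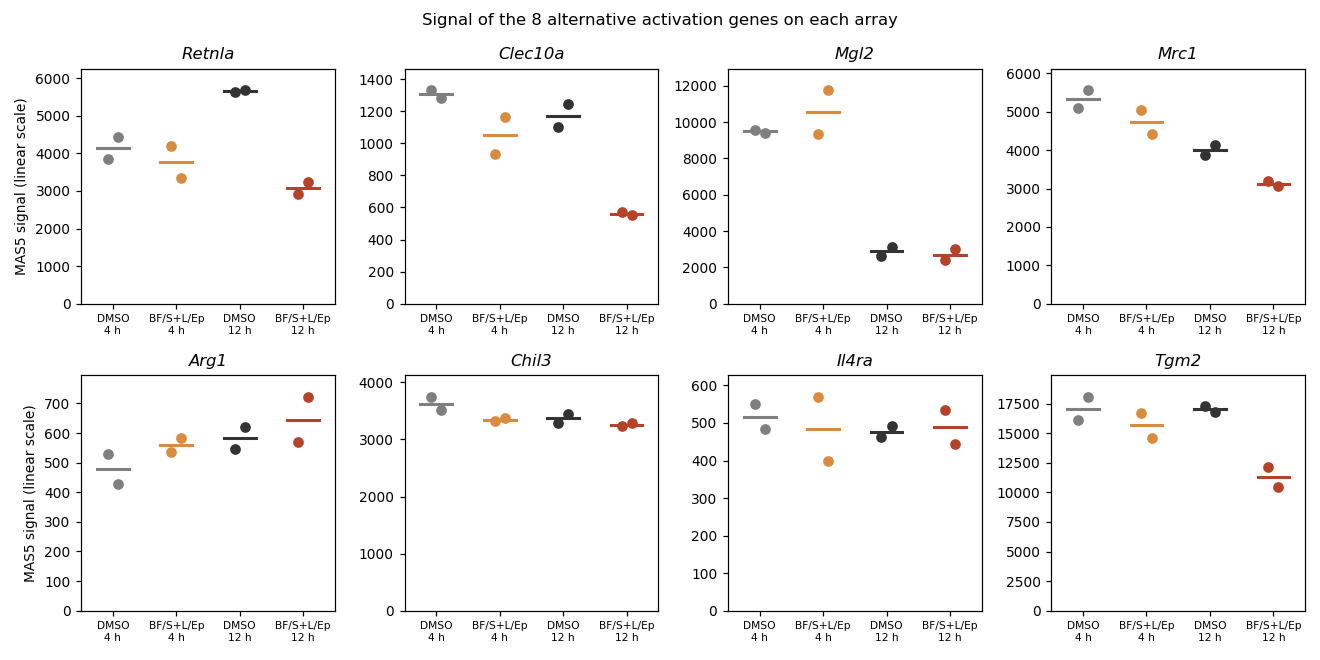
MAS5 signal (linear axis from 0) of the probe set chosen for each gene, by group. Points are single arrays, bars are the mean of 2 arrays. The [BF/S+L/Ep] 12 h arrays lie under all other arrays for *Retnla*, *Clec10a*, *Mrc1* and *Tgm2*. They do so for *Chil3* too, but only just (3294.5 against 3294.9 for the nearest arrays). Both 12 h groups lie far under both 4 h groups for *Mgl2*.

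For *Il4ra*, the receptor chain shared by IL-4 and IL-13, the DMSO arrays at 4 h read 549.8 and 484.4 and the [BF/S+L/Ep] arrays 569.6 and 399.9. At 12 h the DMSO arrays read 463.1 and 490.9 and the [BF/S+L/Ep] arrays 535.5 and 443.4. The groups overlapped at both times, and the group means (477 to 517) lay within the spread of the arrays. The difference of log2 signals, [BF/S+L/Ep] minus DMSO, was -0.11 ± 0.20 (SE) at 4 h and 0.03 ± 0.20 at 12 h, with 95% intervals of -0.54 to 0.32 and -0.40 to 0.46. The next probe set, 1423996_a_at, read 188.2 to 400.9 and gave 0.41 ± 0.34 and 0.16 ± 0.34, and the last, 1447858_x_at, was above the reference on 1 array and gives no fold.

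*Retnla*, which encodes a secreted protein also called RELMα or FIZZ1 and is widely used as a marker of alternative activation, read 3835.3 and 4434.7 in DMSO at 4 h and 4202.4 and 3348.1 in [BF/S+L/Ep] at 4 h. At 12 h it read 5630.1 and 5682.7 in DMSO and 2917.0 and 3246.2 in [BF/S+L/Ep]. The groups overlapped at 4 h, whereas at 12 h both treated arrays were under both controls. The means fell in the order DMSO 12 h (5656 ± 37.2, SD, n = 2), DMSO 4 h (4135 ± 424), [BF/S+L/Ep] 4 h (3775 ± 604) and [BF/S+L/Ep] 12 h (3082 ± 233), of which the 4 h groups were the neighbours that overlapped. At 12 h the difference of log2 signals was -0.88 ± 0.12 (SE), a ratio of 0.544 (95% interval of the difference -1.15 to -0.61, adjusted p = 0.0477 in limma). At 4 h it was -0.14 ± 0.12 (adjusted p = 1).

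*Chil3*, which encodes the secreted chitinase-like protein Ym1, read 3747.1 and 3508.9 in DMSO and 3325.4 and 3368.2 in [BF/S+L/Ep] at 4 h. The 12 h readings were 3294.9 and 3446.4 in DMSO and 3228.6 and 3294.5 in [BF/S+L/Ep]. Both treated arrays lay under both controls at each time, at 12 h by a far narrower margin than in *Retnla*. The differences were -0.12 ± 0.10 at 4 h and -0.05 ± 0.10 at 12 h, with 95% intervals of -0.33 to 0.10 and -0.26 to 0.16, and neither passed. A probe set annotated to both *Chil4* and *Chil3*, which the rule leaves out, gave 0.09 ± 0.13 and 0.19 ± 0.13 and did not pass either.

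*Arg1*, the arginase that competes with nitric oxide synthase for arginine, read 527.9 and 426.5 in DMSO and 534.6 and 582.6 in [BF/S+L/Ep] at 4 h. At 12 h the readings were 544.8 and 618.9 in DMSO and 568.6 and 722.3 in [BF/S+L/Ep]. The treated arrays were above the controls at 4 h and overlapped them at 12 h. Neither difference passed (0.23 ± 0.18 at 4 h and 0.14 ± 0.18 at 12 h, with 95% intervals of -0.15 to 0.62 and -0.25 to 0.53).

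*Tgm2*, tissue transglutaminase, an enzyme that crosslinks proteins, read 16101.2 and 18070.5 in DMSO and 16703.5 and 14605.9 in [BF/S+L/Ep] at 4 h. At 12 h it read 17303.0 and 16808.2 in DMSO and 12167.7 and 10447.2 in [BF/S+L/Ep]. The 4 h groups overlapped, and the 12 h groups did not. The difference at 12 h was -0.60 ± 0.12 (95% interval -0.85 to -0.35), but with an adjusted p of 0.165 in limma it did not pass. At 4 h it was -0.13 ± 0.12. The other 4 *Tgm2* probe sets above the reference on all arrays gave -0.69 ± 0.13 (1455900_x_at), -0.51 ± 0.11 (1437277_x_at), -0.61 ± 0.10 (1417500_a_at) and -0.49 ± 0.15 (1426004_a_at) at 12 h, with adjusted p-values of 0.154, 0.245, 0.101 and 0.590. So all 5 lay under DMSO on both treated arrays at 12 h and none passed. At 4 h they gave -0.14 to 0.20, with 1426004_a_at above DMSO on both arrays. These probe sets are annotated to the same gene and are not replicates, and those whose names end in x_at hold probes that can bind other transcripts. The sixth, 1438942_x_at, was above the reference on 1 array and gives no fold.

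**Figure D2:**
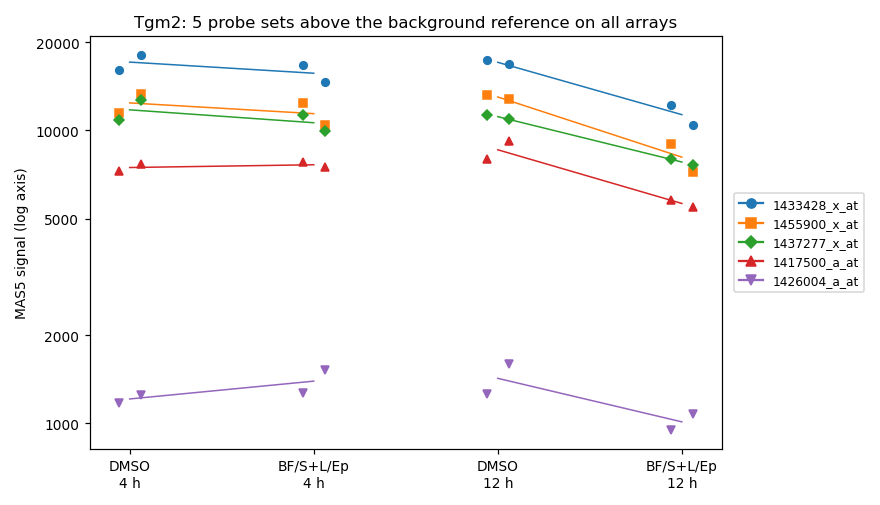
MAS5 signal (log axis) of the 5 *Tgm2* probe sets above the background reference on all 8 arrays. Points are single arrays and lines join the means of DMSO and [BF/S+L/Ep] at one time; all 5 lines fall at 12 h, by 0.49 to 0.69 on the log2 scale, and none of these differences passed the test.

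*Clec10a*, the galactose-type lectin MGL1 of DCs and macrophages, read 1332.2 and 1281.3 in DMSO and 935.4 and 1163.1 in [BF/S+L/Ep] at 4 h. At 12 h it read 1099.1 and 1242.6 in DMSO and 571.2 and 553.0 in [BF/S+L/Ep]. The treated arrays were under the controls at both times, by a wider gap at 12 h. The means fell in the order DMSO 4 h (1307 ± 36.0, SD, n = 2), DMSO 12 h (1171 ± 101), [BF/S+L/Ep] 4 h (1049 ± 161) and [BF/S+L/Ep] 12 h (562 ± 12.9), and the arrays of the middle pair of groups overlapped. At 12 h the difference was -1.06 ± 0.14 (SE), a ratio of 0.481 (95% interval of the difference -1.36 to -0.75, adjusted p = 0.0280 in limma). At 4 h it was -0.32 ± 0.14 and did not pass (adjusted p = 0.997). Averaged over both times it was -0.69 ± 0.10 (adjusted p = 0.0164).

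*Mgl2*, which encodes the related lectin MGL2 and is next to *Clec10a* in RefSeq's order of genes, read 9549.4 and 9411.9 in DMSO and 9315.7 and 11763.3 in [BF/S+L/Ep] at 4 h. Its 12 h readings were 2636.7 and 3129.7 in DMSO and 2399.6 and 2988.4 in [BF/S+L/Ep]. The treatments overlapped at both times. The differences were 0.14 ± 0.14 at 4 h and -0.10 ± 0.14 at 12 h, and the 95% interval at 12 h was -0.40 to 0.20. That interval does not overlap the one of *Clec10a*, but the difference between the 2 genes was not tested.

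*Mrc1*, the macrophage mannose receptor CD206, read 5094.8 and 5565.4 in DMSO and 5040.1 and 4420.2 in [BF/S+L/Ep] at 4 h. At 12 h it read 3882.8 and 4129.2 in DMSO and 3198.4 and 3054.9 in [BF/S+L/Ep]. The treated arrays were under the controls at both times. The differences of -0.17 ± 0.11 at 4 h and -0.36 ± 0.11 at 12 h did not pass (adjusted p = 0.997 and 0.573).

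**Figure D3:**
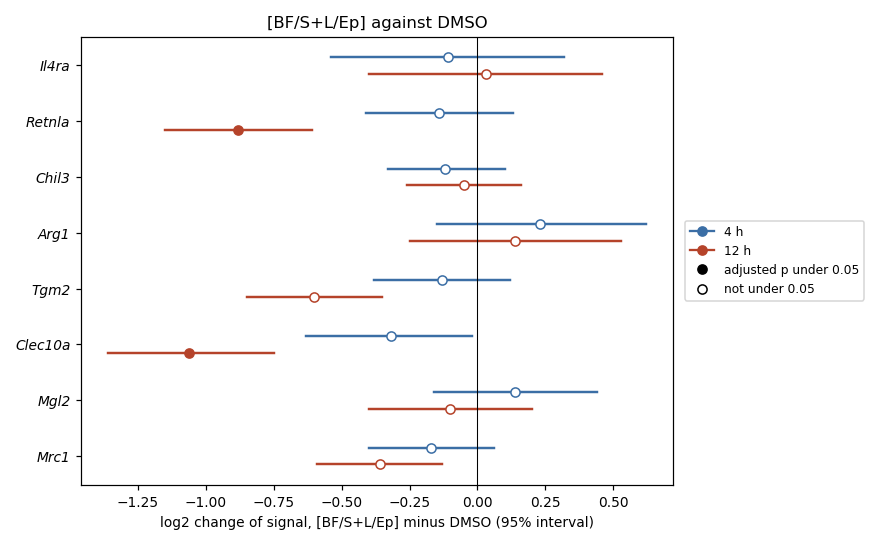
Difference of log2 signals, [BF/S+L/Ep] minus DMSO, for the 8 genes at 4 h and 12 h, with 95% intervals from limma. Filled points passed an adjusted p of 0.05: these are *Retnla* (-0.88) and *Clec10a* (-1.06) at 12 h, and no point at 4 h.

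Counted over the list, limma called 0 of 8 members for the extract at 4 h, where it called 0.00444% of 45037 probe sets higher and 0% lower. Before adjustment 1 member (*Clec10a*) and 2238 of all probe sets (4.97%) had a p under 0.05. At 12 h, 2 members passed, both lower, where 0.0155% of all probe sets were called higher and 0.00444% lower. The 0.00444% is these 2 members themselves, the only probe sets called lower at 12 h, and so is no separate background. Before adjustment 4 of the 8 members and 2684 of all probe sets (5.96%) had a p under 0.05 at 12 h. The list was named with these falls known, so its count is no independent evidence of a direction. The arrays of the 2 treatments did not overlap for 1 member higher (*Arg1*) and 3 lower (*Clec10a*, *Mrc1* and *Chil3*) at 4 h, and for 0 higher and 5 lower (these 3, *Retnla* and *Tgm2*) at 12 h. Among 23355 probe sets brighter than the reference on 4 arrays or more, 16.1% were without overlap higher and 16.3% lower at 4 h, and 17.5% and 19.1% at 12 h. The members' median difference was -0.12 at 4 h and -0.23 at 12 h, against -0.02 and -0.03 over all probe sets. Over the 23355 brighter ones the median was 0 at both times. Averaged over both times, 1 member (*Clec10a*) passed, lower, against 0.0888% of all probe sets higher and 0.0178% lower, with a median of -0.17 against -0.02.

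The calls at 12 h stood close to the threshold. Both calls were lost without any 1 of the 4 arrays at 12 h or of the 2 DMSO arrays at 4 h, with adjusted p-values from 0.118 to 0.324 and differences from -1.14 to -0.80. The adjusted p-values were 0.0274 to 0.0294 without either [BF/S+L/Ep] array at 4 h. Centring the arrays on their medians (0.185 for *Retnla* and 0.163 for *Clec10a*) and moderating the spread without an intensity trend (0.616 and 0.473) ended both calls as well, as did an offset of 50, robust moderation and a fit of the 12 h arrays alone (0.0524 to 0.131). Without the trend, however, limma called no probe set at all in any comparison. The call of *Clec10a* over the average was lost by centring (0.136), without the trend (0.495) and without any 1 array but [BF/S+L/Ep] 4 h replicate 2 (0.0544 to 0.142).

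The effects of 12 h and 4 h were also compared directly. The effect at 12 h minus the effect at 4 h was -0.74 ± 0.18 for *Retnla* (unadjusted p = 0.00107 and adjusted p = 1 in limma) and -0.73 ± 0.20 for *Clec10a* (0.00292 and 1), and -0.47 ± 0.16 for *Tgm2* (0.0132 and 1). The other 5 genes gave -0.24 to 0.14. No member passed, and 3 of the 8 had an unadjusted p under 0.05. Of all probe sets limma called 0%, and 1647 (3.66%) had an unadjusted p under 0.05. It is therefore not shown that the effect on *Retnla* or *Clec10a* grew between 4 h and 12 h. The members' median was -0.21, against -0.01 over all probe sets.

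From 4 h to 12 h *Mgl2* changed more than any of the 8 genes did with the extract. The comparisons of time share their arrays with those of treatment and are no separate evidence on them. *Mgl2* fell from 9481 ± 97.2 (SD, n = 2) to 2883 ± 349 in DMSO, a log2 difference of -1.72 ± 0.14 (adjusted p = 1.83e-05 in limma), and from 10540 ± 1730 to 2694 ± 416 in [BF/S+L/Ep], a difference of -1.97 ± 0.14 (adjusted p = 6.75e-06). No array at 12 h came near any at 4 h. With any 1 array left out the differences were -1.85 to -1.6 in DMSO and -2.14 to -1.8 in [BF/S+L/Ep]. Without the intensity trend, a setting under which no probe set passed, the adjusted p-values were 0.122 and 0.110.

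*Clec10a* fell with time in [BF/S+L/Ep] (-0.89 ± 0.14, adjusted p = 0.00367) and gave -0.16 ± 0.14 in DMSO. *Mrc1* fell in [BF/S+L/Ep], from 4730 ± 438 to 3127 ± 101 (-0.59 ± 0.11, adjusted p = 0.00801), and gave -0.41 ± 0.11 in DMSO (adjusted p = 0.0732), where its arrays did not overlap either. *Tgm2* fell in [BF/S+L/Ep], from 15655 ± 1480 to 11307 ± 1220 (-0.47 ± 0.12, adjusted p = 0.0488), and its DMSO means of 17086 and 17056 differed by less than the spread of the arrays. The *Tgm2* call was lost without any 1 of 7 of the arrays (adjusted p = 0.0833 to 0.333) and held with the second [BF/S+L/Ep] array at 4 h left out (0.0373). It was also lost with quantile normalization, centring, an offset of 50 or only the arrays compared (0.0644 to 0.177). Of the other *Tgm2* probe sets above the reference on all arrays, 1417500_a_at passed (0.0375) and 1426004_a_at, 1437277_x_at and 1455900_x_at did not (0.140, 0.0521 and 0.0638). *Mrc1* lost its call with the first [BF/S+L/Ep] array at 4 h left out (0.0681) and with either one at 12 h left out (0.0585 and 0.0785). Without the intensity trend, where no probe set passed, all 3 calls were lost (adjusted p = 0.249 for *Clec10a*, 0.370 for *Mrc1* and 0.500 for *Tgm2*).

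*Retnla* went opposite ways on the arrays: 12 h minus 4 h was 0.46 ± 0.12 in DMSO (adjusted p = 0.0948) and -0.29 ± 0.12 in [BF/S+L/Ep] (adjusted p = 0.323), and neither passed. Every DMSO array at 12 h was above every DMSO array at 4 h, and every [BF/S+L/Ep] array at 12 h was under every one at 4 h. *Il4ra*, *Arg1* and *Chil3* gave -0.11 to 0.29 and passed in neither treatment.

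**Figure D4:**
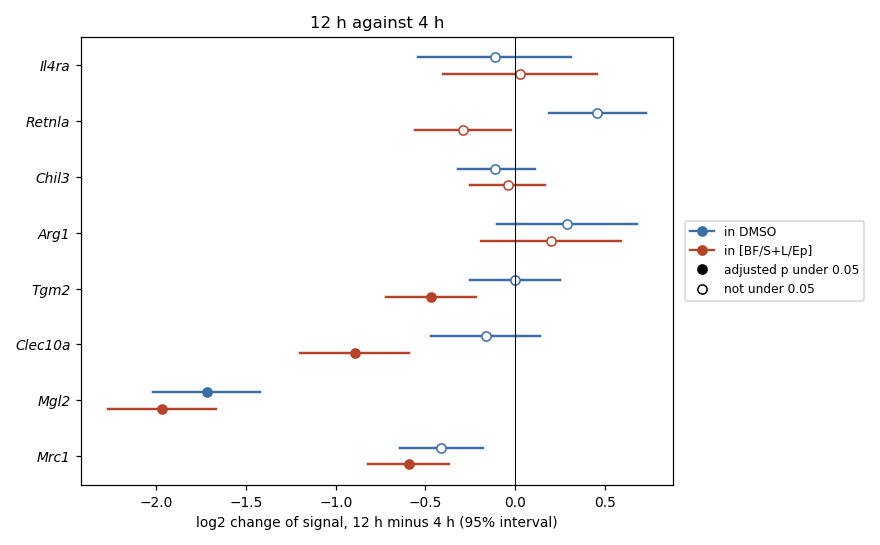
Difference of log2 signals, 12 h minus 4 h, for the 8 genes in DMSO and in [BF/S+L/Ep], with 95% intervals from limma. Filled points passed an adjusted p of 0.05: *Mgl2* in both treatments, and *Clec10a*, *Mrc1* and *Tgm2* in [BF/S+L/Ep].

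In DMSO 1 of 8 members (*Mgl2*) was called lower with time and 0 higher, where 1.18% of all probe sets were called higher and 0.921% lower. In [BF/S+L/Ep] 4 were called lower and 0 higher, where 1.55% were called higher and 1.31% lower. These shares include dim probe sets, whereas every member was above the reference. A fit of only the 23355 brighter probe sets called 1212 in DMSO and 1684 in [BF/S+L/Ep], both directions together. That 3 genes passed in [BF/S+L/Ep] alone does not show a difference between the treatments, since its test is the difference of the effects given above, which no member passed. The arrays of the 2 times did not overlap for 2 members higher (*Retnla* and *Arg1*) and 4 lower (*Clec10a*, *Mgl2*, *Mrc1* and *Chil3*) in DMSO (26.1% and 23.1% of the same 23355 probe sets) and for 0 higher and 6 lower in [BF/S+L/Ep] (26.4% and 23.8%). The members' medians were -0.11 and -0.38, against 0.03 and 0.02 over all probe sets and 0.02 in both treatments over the 23355.

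The rest of the pathway was read from 57 genes in 4 lists, of which 54 had a probe set of their own and 39 were brighter than the reference on 4 arrays or more. None of the 54 passed for [BF/S+L/Ep] at 4 h or at 12 h in limma. Of all probe sets 0.00444% passed higher and 0% lower at 4 h, and 0.0155% and 0.00444% at 12 h. Those lower at 12 h were *Retnla* and *Clec10a* alone. Before adjustment 9 of the 54 had a limma p under 0.05 at each time, a larger share than the 4.97% and 5.96% of all probe sets. The lists were drawn up with earlier results of these data known, and no test of the lists as sets was run. The median differences over the 54 were 0.02 and 0.03. Averaged over both times 1 passed, lower, against 0.0888% of all probe sets higher and 0.0178% lower.

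Of the ligands and the receptor machinery of IL-4 and IL-13, 13 of 14 genes were measured and 9 were above the reference. The cytokine genes *Il4* and *Il13* themselves, named here after their values were seen, were under the reference on every array, at 4.5 to 50.1 and 5.8 to 46.7. *Il13ra1*, the chain that pairs with *Il4ra* to bind IL-13, went from 1148 in DMSO to 965 in [BF/S+L/Ep] at 4 h (-0.25 ± 0.13) and from 1302 to 1189 at 12 h (-0.14 ± 0.13). The kinases of these receptors gave -0.11 ± 0.12 for *Tyk2* at 4 h and 0.10 ± 0.09 for *Jak1* at 12 h. These had the smallest p-values among the 9 genes above the reference at their time, and none passed.

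All 9 transcription factors of the second list were above the reference. *Klf4*, a factor that acts with STAT6 in alternatively activated macrophages, read 2236.6 and 2664.8 in DMSO and 1582.1 and 1482.4 in [BF/S+L/Ep] at 4 h. Its signals at 12 h were 1439.3 and 1716.7 in DMSO and 1012.1 and 1010.8 in [BF/S+L/Ep]. The treated arrays were under the controls at each time, to 62.5% of DMSO at 4 h and 64.1% at 12 h, so that *Klf4* was the gene that passed over the average of both times (-0.65 ± 0.09, adjusted p = 0.0133 in limma) though at neither alone (0.297 and 0.215). That call was lost without [BF/S+L/Ep] 4 h replicate 2, either DMSO array at 4 h, DMSO 12 h replicate 2 or either [BF/S+L/Ep] array at 12 h (adjusted p = 0.0586 to 0.157), with centring (0.136) and without the intensity trend (0.515). *Cebpb*, a C/EBP factor, gave 0.29 ± 0.11 at 4 h, and *Myc* gave 0.58 ± 0.20 at 12 h, and neither passed.

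The third list held 22 other effectors, of which 21 were measured and 19 above the reference. *Il1rn*, the antagonist of the IL-1 receptor, went from 3151 to 4565 at 4 h (0.52 ± 0.13), and *Cd163*, the haemoglobin scavenger receptor, from 197 to 94.3 (-1.12 ± 0.35), close to the reference. *Cd163* went the other way at 12 h, from 172 to 226 (0.40 ± 0.35), and did not pass there. At 12 h *Rnase2a*, an eosinophil-type ribonuclease, went from 6818 to 4629 (-0.56 ± 0.13) and *Msr1*, a scavenger receptor, from 2277 to 3432 (0.59 ± 0.14). These 4 had the smallest p-values among the 19 at their time and did not pass (adjusted p = 0.383 to 0.969), with some higher and some lower. Among relatives of the members, 11 of 12 were measured and only *Asgr2* and *Arg2* were above the reference on 4 or more arrays. *Asgr2*, a galactose-binding lectin, gave -0.25 ± 0.19 at 4 h and -0.37 ± 0.19 at 12 h, and *Arg2*, the mitochondrial arginase, 0.01 ± 0.12 and -0.03 ± 0.12, and none of these passed.

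**Figure D5:**
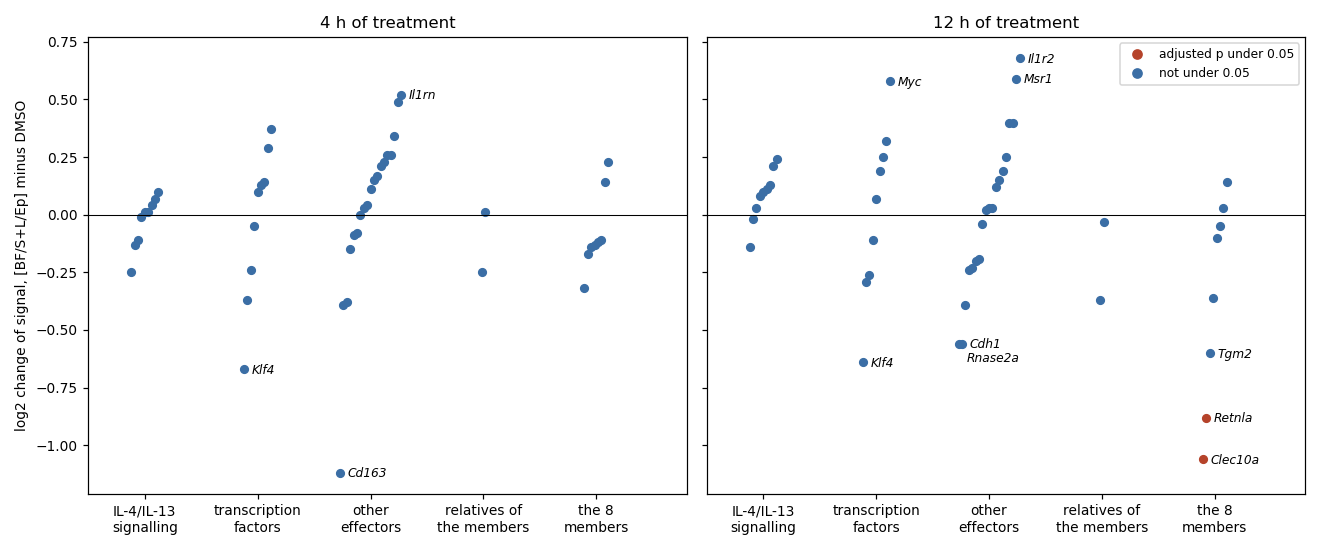
Difference of log2 signals, [BF/S+L/Ep] minus DMSO, at 4 h and 12 h for the 39 pathway genes brighter than the reference on 4 arrays or more and for the 8 members. Each point is the brightest probe set of a gene, genes beyond 0.5 on the log2 scale are named, and the points that passed an adjusted p of 0.05 are *Retnla* and *Clec10a* at 12 h.

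With time, limma called 6 of the 54 pathway genes higher and 4 lower in DMSO, and 7 higher and 6 lower in [BF/S+L/Ep]. Over all probe sets it called 1.18% higher and 0.921% lower in DMSO, and 1.55% and 1.31% in [BF/S+L/Ep]. *Ccl17*, a chemokine for CCR4-bearing T cells and an IL-4 target, fell from 36156 to 7596 in DMSO (-2.25 ± 0.11) and from 37074 to 7390 in [BF/S+L/Ep] (-2.32 ± 0.11). *Il1r2*, the decoy receptor for IL-1, fell from 1354 to 283 in DMSO and from 1887 to 443 in [BF/S+L/Ep] (-2.29 ± 0.20 and -2.09 ± 0.20). Both thus fell in both treatments, as *Mgl2* did. *Arg2* rose from 1526 to 3558 in DMSO (1.22 ± 0.12) and from 1543 to 3498 in [BF/S+L/Ep] (1.18 ± 0.12), whereas *Arg1* passed in neither treatment. *Igf1*, a growth factor, rose from 985 to 2314 in DMSO (1.24 ± 0.13) and from 930 to 2357 in [BF/S+L/Ep] (1.34 ± 0.13). The adjusted p-values of these changes in limma were 3.71e-07 to 0.000199.

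Last, the genes whose signals ran most like those of *Retnla* and *Clec10a* over the 8 arrays were listed among 16511 probe sets above the reference on all arrays. For *Retnla* the highest Pearson correlations of log2 signal were with *Tcf7l2* (0.956), *Parp3* (0.955), *Osbpl11* (0.950), *Senp2* (0.940) and *Taf10* (0.933). *Tcf7l2*, a transcription factor of the Wnt pathway, read 528.3 and 581.8 in DMSO 12 h and 403.4 and 389.2 in [BF/S+L/Ep] 12 h, with the 4 h arrays at 415.8 to 500.8. For *Clec10a* they were *Fcgr2b* (0.971), *Smug1* (0.956), *Ak3* (0.952), *Bach2* (0.948) and *Btbd1* (0.948). *Fcgr2b*, the inhibitory Fc receptor, read 7219.2 and 7458.8 in [BF/S+L/Ep] 12 h and 8749.9 to 9521.7 on the other arrays. The lists share no gene. The 8 arrays stand in 4 groups and the highest of many correlations were taken, so these values describe the arrays and carry no test.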

How the data were processed

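RNA of 8 BMDC samples (4 groups of 2 arrays) was measured on Affymetrix Mouse Genome arrays. The intensity values deposited by the authors are MAS5 signals, on a linear scale, with 1 value for each probe set on an array. For MAS5, the version is not given in the sources. Each array had a trimmed mean (2% off each end) of 500, so differences are relative to a common scale, and low signals are noisy in MAS5. Arrays have no read depth, and their number limits the precision. The array annotation used gives 34945 of 45037 probe sets a single symbol, 932 several and 9160 none, and 64 control probe sets of 45101 were left out. It may be old, and 34741 of those with 1 symbol have a gene in RefSeq.

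A model with 1 mean for each of the 4 groups was fitted to log2 signals of the 8 arrays with limma (version 3.58.1, under R 4.3.3 with statmod 1.5.0), with an intensity trend of the spread (4 residual and 8.833 prior degrees of freedom). Tests were two-sided, adjusted by Benjamini-Hochberg over the 45037 probe sets, with a threshold of 0.05. The methods name software and no model, and the study's selection of genes by calls, variation and fold was not run here. Alternatives were quantile normalization, centring on medians, a filter on dim probe sets (4 or 2 arrays over the reference), adding 50 before log2, other moderation, blocking on the replicate number, only the arrays compared, other probe sets of a gene and each array left out.

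The members, gene lists and tests were chosen with earlier results of these data known, and adjusted p-values at 12 h are no independent support for *Retnla* and *Clec10a*. Named were all members, every pathway gene that passed for treatment, the 2 with the smallest p of each list at each time among genes brighter than the reference on 4 arrays or more, the 3 with the smallest p in each comparison of time, and the 5 genes most like *Retnla* and *Clec10a*. Python 3.11.15 with matplotlib 3.10.9 drew the figures. Protein sequences were not used here.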

Additional observations from a re-analysis of the deposited data

Results flagged for a closer look

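*Retnla* (probe set 1449015_at) was picked out because its change from 4 h to 12 h went up on every array in DMSO and down on every array in [BF/S+L/Ep]. The difference of these changes was tested in limma and was -0.74 (unadjusted p = 0.00107, adjusted p = 1), so that it did not pass. *Tgm2* probe set 1417500_a_at was picked out in the same way, with a difference of -0.64 (unadjusted p = 0.000741, adjusted p = 1): it gave 0.20 in DMSO and -0.44 in [BF/S+L/Ep]. *Tgm2* probe set 1426004_a_at had opposite directions both for time in the 2 treatments and for treatment at the 2 times, with a difference of -0.68 (unadjusted p = 0.00579, adjusted p = 1). Its treatment differences were 0.20 at 4 h and -0.49 at 12 h. The brightest *Tgm2* probe set did not show such opposite directions without overlap.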

How the results depend on the processing

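The calls for the extract depended on the processing, and those for time less so, apart from *Tgm2*. The call of *Tgm2* over time in [BF/S+L/Ep] was lost with quantile normalization, centring, an offset of 50 and only the arrays compared (adjusted p = 0.0644 to 0.177 in limma). The 2 members called at 12 h became 0 with arrays centred on their medians, with an offset of 50, without the intensity trend, with robust moderation and with only the arrays compared, 1 with the replicate block (*Retnla* at an adjusted p of 0.0516), and 0 to 2 with an array left out. The 1 member called over the average became 2 with quantile normalization and with either filter on dim probe sets, 0 with centring and without the trend, and 0 to 1 with an array left out. For time in DMSO, 1 member became 2 with the filter at 4 arrays and with only the arrays compared, 0 without the trend, and 1 to 3 with an array left out. For time in [BF/S+L/Ep], 4 members became 0 without the trend and 2 to 4 with an array left out. At 4 h and for the difference of the effects no member, and at 4 h and 12 h no pathway gene, was called under any alternative run. Moderation without the trend called no probe set at all in any comparison, so its losses are not particular to the members. The causes were not tested. Same-numbered arrays of different groups deviated with correlations of -0.0291 to 0.11, and the numbers were not taken as pairs. The block also moved *Tgm2* over time in [BF/S+L/Ep] to an adjusted p of 0.0623, and changed no other call of a member. The checks of *Klf4* were added after its values were seen.

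Log2 differences that changed sign were small ones, none of which had been called. With arrays centred on medians these were *Chil3* at 12 h (0.03) and *Il4ra* over the average (0.02) and over time in [BF/S+L/Ep] (-0.03, and -0.02 with quantile normalization). With probe set 1423996_a_at *Il4ra* gave 0.41 at 4 h, 0.28 over the average, -0.25 for the difference of the effects and 0.56 for time in DMSO. *Tgm2* gave 0.03 (1417500_a_at) and 0.20 (1426004_a_at) at 4 h and, for time in DMSO, 0.07 with quantile normalization and 0.20, 0.22 and 0.07 with 1417500_a_at, 1426004_a_at and 1455900_x_at. With an array left out the ranges that crossed 0 were -0.30 to 0.03 for *Retnla* at 4 h. For *Mgl2* they were -0.03 to 0.31 at 4 h, -0.26 to 0.06 at 12 h and -0.06 to 0.10 over the average. For *Arg1* they were -0.03 to 0.31 at 12 h and -0.26 to 0.08 for the difference of the effects. For *Il4ra* they were -0.37 to 0.14 at 4 h, -0.10 to 0.17 at 12 h, -0.17 to 0.09 over the average, -0.11 to 0.40 for the difference of the effects and -0.23 to 0.29 for time in [BF/S+L/Ep]. For *Tgm2* it was -0.08 to 0.08 for time in DMSO.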
